A study of Mus musculus with 6 samples.

Results

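The 54 genes described here build ribosomes. They encode the RNA polymerase I machinery that transcribes ribosomal RNA (rRNA), the particles and enzymes that modify it, the factors that assemble the small and the large ribosomal subunit, and abundant multifunctional nucleolar proteins. They were chosen by gene symbol, with no threshold on a measured value but with earlier results of these data known, and each of the 54 symbols had exactly 1 row among the 31456 rows of the count table. The samples were HCT116 cells, an established human colorectal carcinoma line, as an oxaliplatin-resistant form (resistant, 3 libraries) and as the parental form (parental, 3 libraries). Oxaliplatin is a platinum drug used against colorectal cancer that forms DNA adducts. No other genotype or agent is given for either form. How resistance was obtained, whether the resistant form is a clone, whether drug was present at harvest and whether the libraries of a form came from separate cultures is not stated in the labels. The p-values therefore measure the spread between these libraries, which may be technical, and a difference between the forms cannot be assigned to resistance itself.

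Ribosome production starts in the nucleolus, where RNA polymerase I transcribes a long precursor rRNA. Small nucleolar ribonucleoproteins (snoRNPs) guide its methylation and pseudouridylation, and separate sets of factors cleave it and fold it into the small and the large subunit. The genes of this programme are usually expressed together, are typical targets of the transcription factor MYC, and are high in fast-growing cells, colorectal carcinoma included.

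The libraries held 24039045, 28432096 and 25136365 counts in resistant replicates 1, 2 and 3, against 27303582, 32138423 and 20246878 in parental replicates 1, 2 and 3. Taken as the floor of detection, 3 counts equalled 0.0933 to 0.148 CPM (counts scaled to library size), and every one of the 54 genes lay far above it. The lowest resistant mean was 19.9 CPM and the lowest parental mean 24.9 CPM. Parental replicate 2 stood apart. A chi-square statistic of its counts against those of another parental library, divided by the number of genes, was 11.5 and 11.1, against 1.99 for parental replicates 1 and 3 and 2.67 to 4.52 among the resistant libraries. Mitochondrial genes took 6.37% to 6.99% of the counts in the resistant libraries and 4.86% to 5.15% in the parental libraries, and their part in the results was not tested. The epithelial markers EPCAM, KRT8, KRT18 and KRT19 were abundant in every library, whereas CDX1, VIL1 and LGR5 had at most 8 counts. Among the fibroblast markers 2 of 8 were tested and both were higher in the resistant cells, COL1A1 and PDGFRB. The summed level of that list was 39.3 to 45 CPM in the resistant and 22.5 to 26.1 CPM in the parental libraries. Nearly all of it was COL1A1, at 38.4 to 43.9 CPM in the resistant and 22.4 to 25.8 CPM in the parental libraries. PDGFRB had only 2 to 17 counts in a library, and COL1A2, DCN and LUM had at most 2 counts in any library. The part of these markers in the results was not tested. The 6 leukocyte markers together stayed between 0.255 and 0.643 CPM in all libraries.

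The ribosome biogenesis genes were lower in the resistant cells almost without exception. Of the 54 genes 51 fell, none rose and 3 did not pass the threshold (edgeR quasi-likelihood test, adjusted p under 0.05 over all 16605 tested genes). None rose at an unadjusted p under 0.05 or with DESeq2 either. Among all tested genes 26.5% fell and 27.3% rose, 53.8% in either direction, and among the 7831 tested genes whose mean level lay within the range of these 54 genes 38.1% fell and 23.8% rose. The median log2 fold change of the 54 genes was -0.50, against 0.02 for all tested genes, and each of the 54 values was below 0. The changes were modest in size. They ran from -1.11 for BOP1 to -0.11 for GAR1 on the log2 scale, with quartiles of -0.61 and -0.37, and 15 of the 54 genes fell at least 1.5-fold, against 6.74% of all tested genes that fell by that much and 18.5% that changed by it in either direction. In 53 of the 54 genes each resistant library lay below each parental library, which held for 29.9% of all tested genes, while 31.3% were separated the other way, 61.2% in all. Only GAR1 overlapped between the forms.

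**Figure D1:**
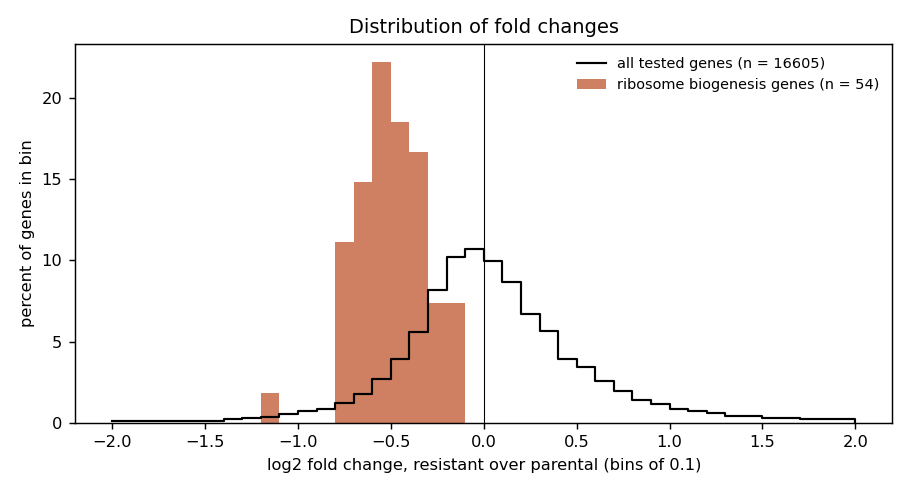
Distribution of log2 fold changes, resistant over parental, as the percent of genes in bins of 0.1, for the 54 ribosome biogenesis genes (bars) and for all 16605 tested genes (line; values beyond 2 on either side are not drawn). The bars lie wholly to the left of 0, with a median of -0.50, while the line centres near 0.

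Summed over the 54 genes, the level was 7336, 7423 and 7372 CPM in resistant replicates 1, 2 and 3, against 10507, 11229 and 10568 CPM in parental replicates 1, 2 and 3. As a share of the deposited counts, with no further normalization, this was 0.761% ± 0.0020 in the resistant and 1.04% ± 0.0289 in the parental libraries (SD, n = 3 each). The resistant libraries were nearly identical in this sum, and all lay below the lowest parental library. With library sizes alone in place of the TMM factors 48 of the 54 genes fell, and the lower share of all called genes was 34.7%, against 49.2% with TMM. All 54 fold changes stayed below 0 under that scaling. CPM are relative, so a change of total RNA per cell would not be seen, and in bulk libraries fewer expressing cells and less RNA per cell cannot be told apart.

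**Figure D2:**
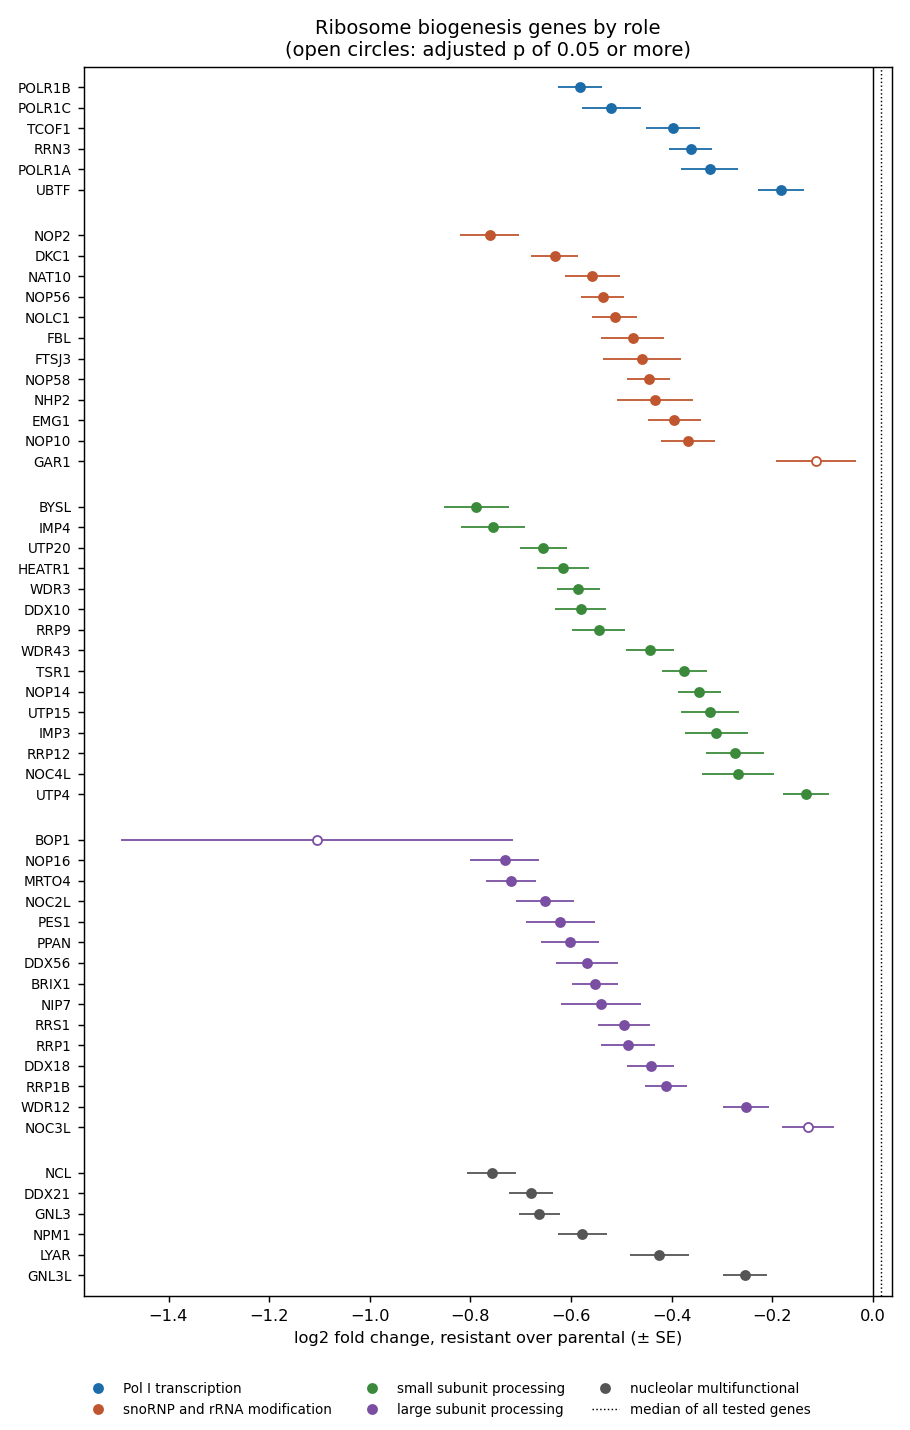
Log2 fold change (resistant over parental, horizontal axis) with its standard error for each of the 54 genes, grouped by role. Filled circles passed the threshold and open circles did not. Every point lies left of 0 and left of the dotted line, the median of all tested genes at 0.02.

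All 6 genes of RNA polymerase I transcription fell, with log2 fold changes from -0.58 to -0.18 and a median of -0.38. POLR1B (ENSG00000125630.15), the second-largest subunit of the polymerase, had 76.2, 79.1 and 80.2 CPM in the resistant libraries, against 117, 118 and 118 CPM in the parental libraries. Its groups were far apart and each was tight, and it fell (log2 fold change of -0.58 with an SE of 0.04, edgeR adjusted p = 5.2e-07). POLR1A, the largest subunit and catalytic partner of POLR1B, had 133, 149 and 134 CPM in the resistant and 170, 184 and 167 CPM in the parental libraries. It fell by 0.32 on the log2 scale, with an SE of 0.06 (edgeR adjusted p = 4.7e-04), and the forms did not overlap. POLR1C, a subunit shared with RNA polymerase III, fell 1.43-fold to 40.5 ± 2.25 CPM in resistant libraries, against 58.0 ± 2.67 CPM in parental libraries (SD, n = 3 each; edgeR adjusted p = 1.7e-05).

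The factors that recruit and support the polymerase had fold changes closer to 0 than that of POLR1B. Those of RRN3 and TCOF1 were not closer to 0 than that of POLR1A. RRN3, the initiation factor that carries growth signals to RNA polymerase I, had 114, 108 and 113 CPM in the resistant and 144, 142 and 145 CPM in the parental libraries. It fell 1.29-fold (edgeR adjusted p = 2.5e-05). TCOF1, which encodes the nucleolar phosphoprotein treacle, had 159, 166 and 158 CPM in the resistant and 207, 229 and 201 CPM in the parental libraries, a 1.32-fold fall (edgeR adjusted p = 7.6e-05). UBTF encodes the protein that binds and keeps open the rRNA gene repeats, and it showed the smallest change of the group. Its levels were 141, 147 and 145 CPM in the resistant and 158, 171 and 164 CPM in the parental libraries (log2 fold change of -0.18 with an SE of 0.05, edgeR adjusted p = 0.0052). When scaled by library sizes alone, UBTF had a value of -0.09 and did not pass (edgeR adjusted p = 0.10).

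Of the 12 genes of snoRNPs and rRNA modification 11 fell, with a median log2 fold change of -0.47. The core proteins of the box C/D particles, which methylate the ribose of rRNA, moved by nearly the same amount. FBL, the methyltransferase fibrillarin, had 157, 165 and 152 CPM in the resistant libraries, against 206, 243 and 212 CPM in the parental libraries, where replicate 2 was the highest. NOP56 had 302, 302 and 299 CPM in the resistant and 429, 455 and 426 CPM in the parental libraries. The log2 fold changes were -0.48 ± 0.06 for FBL, -0.54 ± 0.04 for NOP56 and -0.45 ± 0.04 for its partner NOP58 (SE), with edgeR adjusted p-values of 5.9e-05 or lower.

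The box H/ACA particles, which convert uridine to pseudouridine, were less even. DKC1 (ENSG00000130826.18), the pseudouridine synthase dyskerin, which is also part of telomerase, had 130.1, 133 and 132 CPM in the resistant and 196, 215 and 203 CPM in the parental libraries. It fell 1.55-fold (log2 fold change of -0.63 with an SE of 0.05, edgeR adjusted p = 4.4e-07). NHP2 and NOP10, small structural proteins of the same particle, fell 1.35-fold and 1.29-fold. GAR1, the remaining core protein, had 21.7, 24.6 and 22.5 CPM in the resistant and 26.6, 22.2 and 26.0 CPM in the parental libraries, so the forms overlapped. GAR1 had a log2 fold change of -0.11 ± 0.08 (SE, edgeR adjusted p = 0.25), and without parental replicate 2 the value was -0.19 and passed (edgeR adjusted p = 0.021). That was 1 of 15 alternatives, over which the GAR1 value reached -0.02 and the adjusted p (edgeR, DESeq2 or limma) 0.86. A difference in response between GAR1 and DKC1 was not tested.

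The enzymes that modify rRNA outside the guide particles all fell. NOP2, a cytosine methyltransferase of the large-subunit rRNA, had 76.5, 84.2 and 83.5 CPM in the resistant and 128, 144 and 142 CPM in the parental libraries. Its log2 fold change of -0.76 ± 0.06 (SE, edgeR adjusted p = 6.9e-07) was the largest of the modification group. NAT10, the acetyltransferase of the small-subunit rRNA, fell 1.47-fold, and the methyltransferase genes FTSJ3 and EMG1 fell 1.37-fold and 1.31-fold. NOLC1, a chaperone that accompanies snoRNPs through the nucleolus, had 429, 426 and 445 CPM in the resistant and 593, 629 and 634 CPM in the parental libraries (log2 fold change of -0.51 with an SE of 0.04, edgeR adjusted p = 1.8e-06).

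**Figure D3:**
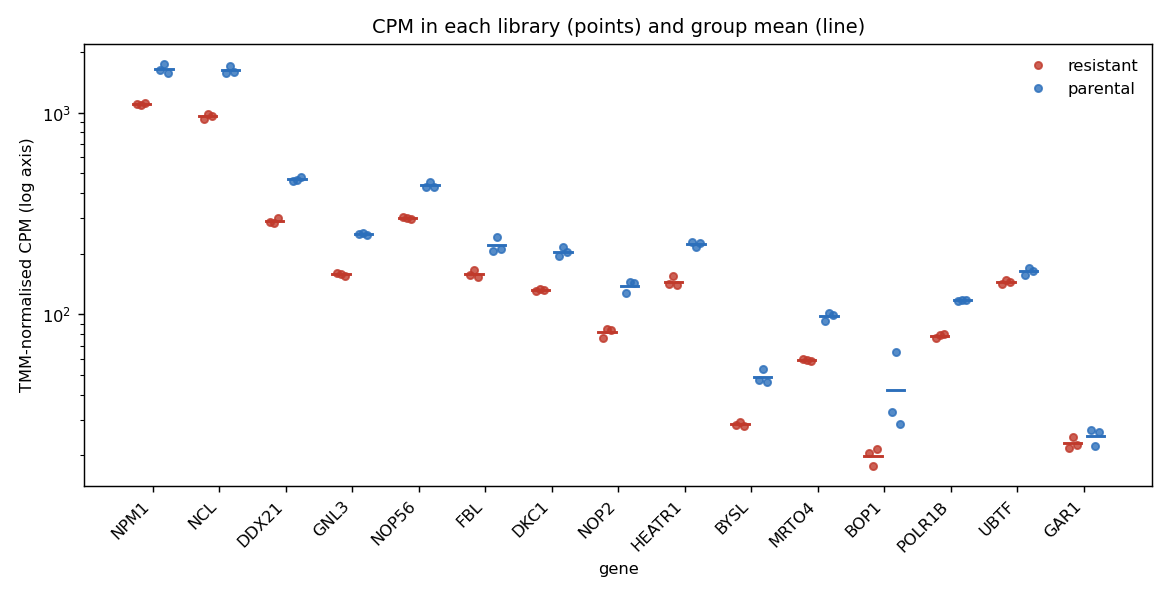
TMM-normalised CPM on a log axis for 15 of the genes, with the 3 resistant libraries left of the 3 parental libraries; points are libraries and lines are group means. Only GAR1 overlaps between the forms, and BOP1 has 1 parental library, replicate 2, far above its other parental libraries.

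All 15 genes of small-subunit processing fell, with a median log2 fold change of -0.44 and a range from -0.79 to -0.13. BYSL, bystin, needed for late maturation of the small subunit, had 28.2, 29.3 and 27.8 CPM in the resistant and 47.2, 53.5 and 46.4 CPM in the parental libraries. The fall of BYSL, 1.73-fold, was the largest among these 15 genes (log2 fold change of -0.79 with an SE of 0.07, edgeR adjusted p = 1.2e-06). UTP20, a very large scaffold protein of the processome that first cleaves the precursor, had 53.0, 56.0 and 53.1 CPM in the resistant and 84.7, 85.2 and 85.5 CPM in the parental libraries. Within each form the UTP20 values were almost the same, and the fall was 1.57-fold (edgeR adjusted p = 3.3e-07). WDR3, a propeller-repeat protein of the same assembly, fell by 0.59 on the log2 scale to 102 ± 2.95 CPM in resistant libraries, against 153 ± 2.05 CPM in parental libraries (SD, n = 3 each; edgeR adjusted p = 4.6e-07).

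The UTP-A module, which binds the nascent precursor first and is linked to its transcription, held both large and small changes. HEATR1 had 141, 156 and 139.6 CPM in the resistant libraries, against 228, 216 and 225 CPM in the parental libraries, a fall of 1.53-fold (edgeR adjusted p = 1.3e-06). WDR43 and UTP15 fell by 0.44 and 0.32 on the log2 scale. UTP4 was the least changed of the 15 genes, at 130.1, 133 and 127 CPM in the resistant and 136, 147 and 145 CPM in the parental libraries (log2 fold change of -0.13 with an SE of 0.05, edgeR adjusted p = 0.030). UTP4 lay just inside the threshold and was no longer called without resistant replicate 1, resistant replicate 3 or parental replicate 3 (edgeR adjusted p = 0.089, 0.11 and 0.077), nor with library sizes alone (edgeR adjusted p = 0.49). On the second deposited table, whose unit was inferred to be FPKM, the UTP4 value was -0.025 and did not pass (limma adjusted p = 0.64 to 0.66).

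IMP3 and IMP4, partner proteins of the U3 particle that cleaves the precursor, changed by different amounts. IMP4 fell 1.69-fold to 54.9 ± 2.85 CPM in resistant libraries, against 92.6 ± 7.28 CPM in parental libraries, and IMP3 fell 1.24-fold to 30.3 ± 1.29 CPM, against 37.6 ± 2.35 CPM (SD, n = 3 each; edgeR adjusted p = 1.4e-06 for IMP4 and 0.0014 for IMP3). The difference between IMP4 and IMP3 was not tested. RRP9, which marks the U3 particle, and the helicase gene DDX10 fell by 0.54 and 0.58 on the log2 scale. The export and maturation factors TSR1 and RRP12 fell by 0.37 and 0.27 on the log2 scale, and the genes of the nucleolar proteins NOP14 and NOC4L, which bind each other in yeast, fell by 0.34 and 0.27. The NOC4L call was lost with library sizes alone (edgeR adjusted p = 0.054) and in each of the 3 FPKM settings (limma adjusted p = 0.074 to 0.16). The RRP12 call was lost in the same 3 FPKM settings (limma adjusted p = 0.051 to 0.10).

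Of the 15 genes of large-subunit processing 13 fell and 2, BOP1 and NOC3L, did not pass. The median log2 fold change was -0.55. MRTO4, a ribosome assembly factor related to a ribosomal stalk protein, had 60.2, 59.4 and 58.6 CPM in the resistant and 92.6, 102 and 99.0 CPM in the parental libraries. It fell 1.65-fold (log2 fold change of -0.72 with an SE of 0.05, edgeR adjusted p = 2.7e-07). NOP16, a nucleolar protein known as a MYC target, had 29.9, 29.8 and 28.2 CPM in the resistant and 44.6, 52.9 and 48.4 CPM in the parental libraries, a 1.66-fold fall (edgeR adjusted p = 3.4e-06). NOC2L, which moves pre-ribosomes towards the nucleoplasm and also binds histones, fell 1.57-fold to 227 ± 7.99 CPM in resistant libraries, against 357 ± 27.8 CPM in parental libraries (SD, n = 3 each; edgeR adjusted p = 2.0e-06).

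BRIX1, a factor of early large-subunit particles, had 60.4, 57.4 and 60.5 CPM in the resistant and 87.6, 85.8 and 87.9 CPM in the parental libraries (1.47-fold lower, edgeR adjusted p = 1.4e-06). The helicase genes DDX56 and DDX18 fell 1.48-fold and 1.36-fold. RRP1 and its paralog RRP1B fell 1.40-fold and 1.33-fold, RRS1, which loads a small RNA and its proteins onto the particle, 1.41-fold, and NIP7 1.45-fold. PPAN fell 1.52-fold. NOC3L was close to the threshold on the other side, at 74.4, 72.0 and 79.0 CPM in the resistant and 80.3, 80.9 and 85.6 CPM in the parental libraries (log2 fold change of -0.13 with an SE of 0.05, edgeR adjusted p = 0.051). With all libraries NOC3L passed under RLE factors, with no filter on low counts and with the replicate block (edgeR adjusted p = 0.037, 0.031 and 0.0082). It also passed without parental replicate 2 or without resistant replicate 3 (edgeR adjusted p = 0.027 and 0.036). These were 5 of the 15 alternatives. Over all 15 the NOC3L value ran from -0.17 to -0.03, with adjusted p-values (edgeR, DESeq2 or limma) up to 0.75. On the FPKM the forms overlapped for NOC3L, at 27.7, 26.4 and 28.4 in the resistant and 27.3, 28.0 and 28.7 in the parental libraries.

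PES1, BOP1 and WDR12 form the PeBoW complex, which is needed to process the large-subunit rRNA. PES1, pescadillo, had 118, 126 and 118 CPM in the resistant and 176, 208 and 173 CPM in the parental libraries, a 1.54-fold fall (edgeR adjusted p = 2.1e-05). BOP1 (ENSG00000170727.7) had 20.5, 17.7 and 21.6 CPM in the resistant libraries, against 33.0, 64.9 and 28.7 CPM in the parental libraries. The fitted change of BOP1 was the largest of all 54 genes, -1.11 ± 0.39 on the log2 scale (SE), yet it did not pass (edgeR adjusted p = 0.075). Parental replicate 2 lay far above the other parental values. Without parental replicate 2 the BOP1 value was -0.64 and passed (edgeR adjusted p = 6.7e-05). WDR12 had 84.0, 80.4 and 83.8 CPM in the resistant and 100.3, 95.7 and 99.7 CPM in the parental libraries (log2 fold change of -0.25 with an SE of 0.05, edgeR adjusted p = 6.0e-04). On the FPKM, which scale by gene length as well as depth, WDR12 had 54.8, 47.4 and 48.8 in the resistant and 45.8, 48.4 and 55.8 in the parental libraries. The forms overlapped there, so its fall was seen in the counts and not in the FPKM. A fixed gene length would affect all libraries alike, and why the counts and the FPKM differed for WDR12 was not tested.

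All 6 multifunctional nucleolar genes fell, with a median log2 fold change of -0.62. NPM1 (ENSG00000181163.13), nucleophosmin, a chaperone that organises the granular part of the nucleolus, had 1107, 1086 and 1122 CPM in the resistant libraries, against 1634, 1742 and 1571 CPM in the parental libraries. NCL (ENSG00000115053.16), nucleolin, which binds precursor rRNA and its genes, had 929.8, 989 and 963 CPM in the resistant and 1569, 1709.9 and 1592 CPM in the parental libraries. The gap between the forms was far beyond the spread within either. The log2 fold change was -0.58 ± 0.05 for NPM1 and -0.76 ± 0.05 for NCL (SE; edgeR adjusted p = 1.4e-06 and 1.3e-07).

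DDX21, a helicase that links RNA polymerase I and II transcription to rRNA processing, had 289, 285 and 301 CPM in the resistant and 458, 463 and 479.8 CPM in the parental libraries (log2 fold change of -0.68 with an SE of 0.04, edgeR adjusted p = 1.3e-07). GNL3 (ENSG00000163938.17), nucleostemin, a GTPase known from stem and cancer cells, had 160.4, 159 and 154 CPM in the resistant and 249, 252 and 248 CPM in the parental libraries. Its fall of 1.58-fold had the smallest adjusted p of the 54 genes (edgeR adjusted p = 9.6e-08). Its relative GNL3L fell by 0.25 on the log2 scale, with 82.3, 79.2 and 79.6 CPM in the resistant and 94.0, 97.6 and 95.8 CPM in the parental libraries. The GNL3L call was lost on log2(FPKM + 1) with and without the filter (limma adjusted p = 0.051 and 0.11). LYAR, a nucleolar regulator of cell growth, fell 1.34-fold.

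**Figure D4:**
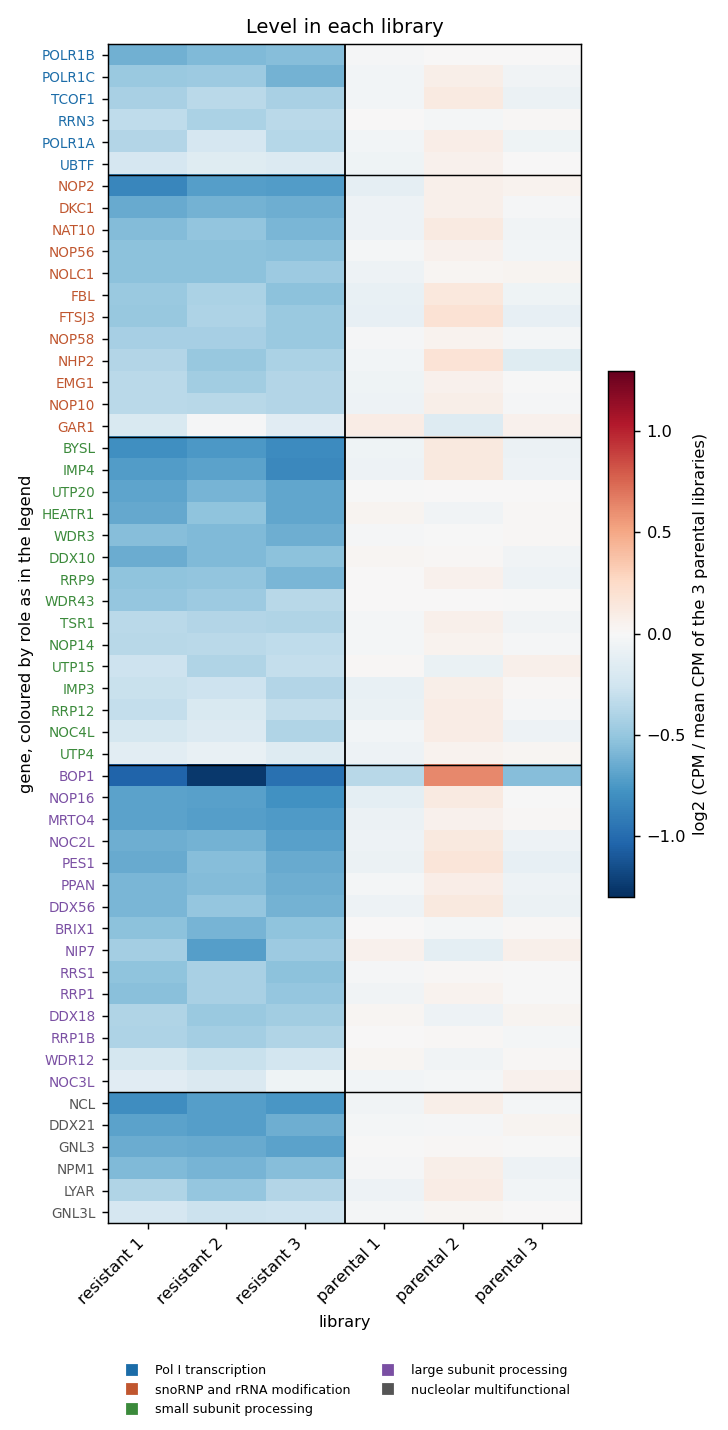
Level of each of the 54 genes (rows, grouped by role) in each library (columns, resistant left of parental) as log2 of its CPM over the mean of the 3 parental libraries. The resistant columns are uniformly below 0, and among the parental columns replicate 2 is the highest for 40 of the 54 genes.

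The spread between libraries was small beside these differences. The coefficient of variation of CPM over the 3 libraries had a median of 3.12% in the resistant form (0.636% to 10.2% over the 54 genes) and 4.63% in the parental form (0.485% to 46.8%, the highest being BOP1). Parental replicate 2 held the highest parental value for 40 of the 54 genes, parental replicate 3 for 10 and parental replicate 1 for 4. Without parental replicate 2, all 54 genes fell and the median log2 fold change was -0.48, so that library was high for most of these genes but did not carry the difference.

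Per length, in the deposited FPKM, the levels differed widely. Among the 54 genes NPM1 was the most abundant in both forms, at 1662 ± 99.4 FPKM in resistant and 2451 ± 47.2 FPKM in parental libraries (SD, n = 3 each). NCL followed at 492 ± 13.8 FPKM in resistant and 805 ± 63.5 FPKM in parental libraries, then NOP56 at 297 ± 4.15 and 413 ± 13.2 FPKM, and FBL at 271 ± 13.6 and 374 ± 39.8 FPKM. In the parental form FBL and NOP56 were within about 1 SD of FBL of each other. The lowest was UTP20, at 6.43 ± 0.159 FPKM in resistant and 9.51 ± 0.0794 FPKM in parental libraries. Within the H/ACA core, NHP2 and NOP10 had 190 ± 5.32 and 181 ± 3.30 FPKM in resistant libraries, close to each other, and GAR1 had 35.2 ± 2.45 FPKM, with DKC1 between them at 68.0 ± 0.671 FPKM (SD, n = 3 each).

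Rows for near copies, readthrough transcripts and antisense transcripts were found for 15 of the 54 genes, 41 rows in all. The 22 rows of NPM1 copies held at most 20 counts in a library each. NOP14-AS1, antisense to NOP14, held counts equal to 13.3% of those of NOP14, and with 484, 553 and 471 counts in the resistant libraries and 332, 427 and 262 in the parental libraries it was higher in each resistant library than in any parental library. The readthrough row PPAN-P2RY11 equalled 13.2% of PPAN and the copies RRN3P1 and RRN3P3 4.83% and 1.94% of RRN3. Strand use in counting is not given in the sources used here, so the values of NOP14, PPAN and RRN3 are uncertain to that extent.

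Other genes of the pathway were listed by role. Of 117 tested genes in the lists of other RNA polymerase I machinery, small-subunit factors, large-subunit factors and RNA exosome 87 fell, 7 rose and 23 did not pass, with a median log2 fold change of -0.29. Among the other small-subunit factors 35 of 42 fell and 4 rose, and among the other large-subunit factors 36 of 48 fell and 2 rose. Among the other polymerase genes 7 of 13 fell and none rose in the edgeR test, nor did any at an unadjusted p under 0.05. In the exosome, the nuclease that trims rRNA ends, 9 of 14 fell and 1 rose. For comparison, 26.5% of all tested genes fell and 27.3% rose. Within the level range of the 54 genes 38.1% fell and 23.8% rose, against a lower share of 53.8% for the other polymerase genes.

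Members of these lists with the smallest adjusted p covered both directions. URB2, a large-subunit factor, had 34.0, 37.5 and 34.0 CPM in the resistant and 72.2, 75.7 and 74.0 CPM in the parental libraries, a fall of 2.10-fold (edgeR adjusted p = 1.9e-08). The helicase gene DDX54 fell 1.66-fold, the small-subunit factor UTP25 1.74-fold, the polymerase subunit genes POLR1E and POLR2H 1.59-fold and 1.45-fold, and the exosome subunit genes EXOSC4 and EXOSC7 1.74-fold and 1.43-fold. WDR75, a UTP-A subunit and partner of UTP4, HEATR1, UTP15 and WDR43, went the opposite way. Its levels were 246, 241 and 245 CPM in the resistant libraries, against 125, 121 and 127 CPM in the parental libraries, a rise of 1.96-fold (log2 fold change of 0.97 with an SE of 0.04, edgeR adjusted p = 4.1e-09). The other 6 pathway genes that rose, AATF, RRP7A, RIOK3, EFL1, NOL12 and EXOSC6, rose by 0.18 to 0.34 on the log2 scale.

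**Figure D5:**
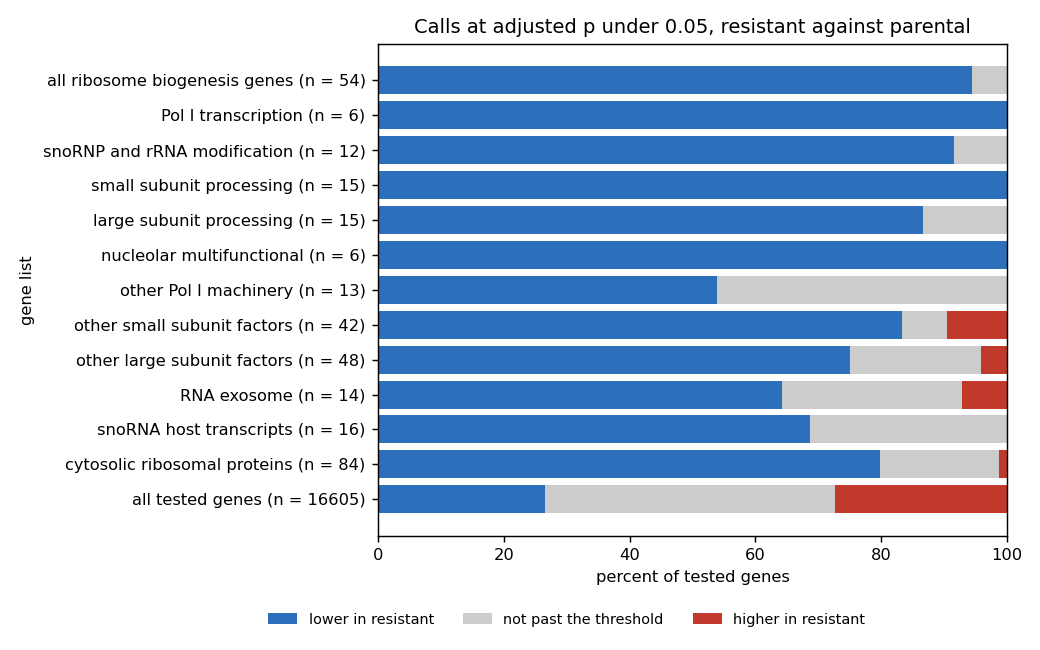
Percent of tested genes that were lower, not past the threshold or higher in resistant against parental cells at an edgeR adjusted p under 0.05, for the 54 ribosome biogenesis genes, their 5 role groups, 6 further lists and all tested genes. The 54 genes are 94.4% lower, against 26.5% of all tested genes.

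Transcripts that host small nucleolar RNAs in their introns fell in 11 of 16 tested cases and rose in none in the edgeR test, also at an unadjusted p under 0.05, with a median log2 fold change of -0.33. Among all tested genes 26.5% fell and 27.3% rose. SNHG1 had 183, 178 and 177 CPM in the resistant and 275, 280 and 275 CPM in the parental libraries, and GAS5, a growth-arrest transcript, had 147, 153 and 148 CPM in the resistant and 225, 222 and 220 CPM in the parental libraries. They fell 1.54-fold and 1.49-fold (edgeR adjusted p = 1.6e-07 and 3.5e-07). Of the cytosolic ribosomal protein genes, the products that these factors assemble, 67 of 84 tested fell and 1, RPS27L, rose, with a median log2 fold change of -0.30. Their share of all counts was 4.17% to 4.27% in the resistant and 4.91% to 5.26% in the parental libraries. RPL8 and RPL30 fell 1.82-fold and 1.72-fold (edgeR adjusted p = 9.7e-09 and 1.9e-07). The difference in size between the ribosomal protein genes and the 54 genes was not tested.

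MYC, the transcription factor of which these genes are typical targets, had 173, 173 and 169 CPM in the resistant and 322, 316 and 322 CPM in the parental libraries, a fall of 1.86-fold (edgeR adjusted p = 6.2e-09). Of the 12 tested genes of the MYC and MAX network 4 fell, 7 rose and 1 did not pass, with a median log2 fold change of 0.21. Of all tested genes 26.5% fell and 27.3% rose, 53.8% in either direction. The network genes that fell were MYC, MLX, MLXIP and MLXIPL, and those that rose were MAX, MYCL, MXD1, MXD3, MXD4, MXI1 and MNT. MAX, the partner of MYC, had a log2 fold change of 0.26 ± 0.07 (SE, edgeR adjusted p = 0.0066). On the FPKM the forms overlapped for MAX, at 48.8 ± 2.43 in resistant and 50.2 ± 4.98 in parental libraries (SD, n = 3 each), so its rise was seen in the counts and not in the FPKM. MXD3, a MAX-binding repressor, rose 1.51-fold to 48.0 ± 1.79 CPM in resistant libraries, against 31.8 ± 1.04 CPM in parental libraries (SD, n = 3 each). MLX, the partner of the MondoA proteins, fell 1.68-fold. MYC mRNA and the ribosome biogenesis genes were lower in the same libraries, and a link between them was not tested.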

How the data were processed

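Per the labels' protocols, a SMARTER mRNA-Seq kit turned total RNA into libraries. The deposited counts are whole reads per gene with no normalization, and a second deposited table was taken as FPKM computed by the authors, a unit inferred from its values. For the aligner, counter, annotation and strand setting nothing is given in the sources used here. Mouse is the organism in the labels, and GRCm38 and mm10 are the builds in the submitters' processing notes, but the tables carry human Ensembl identifiers and symbols. The mouse reference was therefore not used, and no coordinates or sequences are given.

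Columns were assigned through the sample descriptions and groups through the titles. The test was edgeR 4.0.16 in R 4.3.3 (TMM, filterByExpr, robust quasi-likelihood fit, two-sided, Benjamini-Hochberg over 16605 genes, threshold 0.05). CPM are TMM-normalised. The standard error is the log2 fold change over the square root of the F statistic. The floor of detection covers counting error only. With 3 against 3 libraries an exact permutation test cannot give a p below 0.1, so none was made. Alternatives were RLE factors, library sizes alone, other filters, DESeq2 1.42.0, limma 3.58.1 on log2(FPKM + 1) and log2(FPKM + 0.1), a replicate block and leaving out each library. Without a stated filter, FPKM rows needed a mean of at least 1.

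The 54 genes, the gene lists and their roles were chosen with earlier results of these data known. Named genes are the 4 of each role with the smallest adjusted p, NPM1, NCL, FBL, POLR1A, UBTF, RRN3 and MYC, and 2 of each other list; further genes were named after their values were seen, to complete complexes and ranges. There was no row under 7 listed symbols. Rows under older names of POLR1F, POLR1G, POLR1H and SNHG32 were not matched, so the list counts leave these genes out. On simulated data for this comparison (16409 genes, 50 changed per fold), edgeR found 24 of those changed 1.25-fold and 50 of those changed 1.5-fold. Its false calls numbered 10. The simulation used a single dispersion of 0.005 and changed only genes with a mean above 50 counts. Its sensitivity therefore need not be that of the real data.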

Additional observations from a re-analysis of the deposited data

How the results depend on the processing

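Of 54 genes 42 kept their direction and their side of the threshold under all 15 alternatives, and 776 of 810 single values did. The number that fell was 44 to 52 over the 9 alternatives that keep all libraries and 50 to 54 with 1 library left out, and none rose in any of them. At a fold of at least 1.5 the number that fell was 15. The median log2 fold change of the 54 genes was -0.41 with library sizes alone, -0.46 on log2(FPKM + 1) with or without the filter, and -0.53 to -0.48 with 1 library left out. Relative to the median of all tested genes it was -0.52 in the TMM fit and with library sizes alone. Size factors shift all genes by nearly the same amount, so this equality was fixed in advance and tests nothing. WDR12 changed sign on the FPKM, at 0.011 with a pseudocount of 1, with or without the filter, and 0.012 with 0.1 (limma adjusted p = 0.93 to 0.95). Other pathway genes that fell numbered 56 and all called genes 5290 on log2(FPKM + 1) with no filter, which adjusts over all 31456 rows. With 1 library left out they numbered 79 to 91 and 7666 to 9209, and other pathway genes that rose 4 to 8, with 4 without resistant replicate 3 or parental replicate 1. BOP1 passed with DESeq2 (adjusted p = 0.011) and in each of the 3 FPKM settings (limma adjusted p = 0.0055 to 0.020), beside the fit without parental replicate 2. Its adjusted p-values lay between 6.7e-05 and 0.19 across the alternatives. The cause of these changes was not tested. With the replicate block 52 of the 54 genes fell and 9973 genes were called, NOC3L being gained. The numbers were not taken to pair the libraries, because the labels do not say that they do. The correlation of deviations from the group means was 0.098, 0.258 and 0.0831 for pairs 1, 2 and 3. For libraries of unlike number it ran from -0.179 to 0.106, the highest being resistant replicate 1 with parental replicate 3. Whether libraries of the same number shared a batch was not tested. Calls of NHP2, FTSJ3 and WDR43 were lost on log2(FPKM + 1) with no filter (limma adjusted p = 0.098, 0.12 and 0.051), beside the losses given for UBTF, UTP4, NOC4L, RRP12, GNL3L and WDR12. Precision did not follow level alone. The SE was 0.08 for GAR1 and 0.07 for NOC4L, both of low level, against 0.04 for GNL3 and NOP56. For FTSJ3 and NHP2, whose levels were higher than those of GAR1 and NOC4L, the SE was also 0.08. RRS1 and NOP10 had lower levels than FTSJ3 and NHP2, and an SE of 0.05. The cause of these differences in SE was not tested.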
